A study of Mus musculus with 36 samples.

Results

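The genes described are 10 members of the immediate early group, Egr1, Egr2, Egr3, Fos, Fosb, Fosl1, Jun, Junb, Atf3 and Ier2, chosen by symbol in the deposited annotation. All 10 were found in the microglial table of 15385 genes and in the astrocyte table of 14551 genes. Polyadenylated RNA was sequenced from 36 cultures of primary mouse glia, 24 of microglia and 12 of astrocytes, treated for 4 h, and the question was how far the transcriptional answer to TNF needs the kinase RIPK1. The cells came from pooled brains of 2 to 4 day old C57BL/6 mice with no genetic change. Mixed glia were grown for 12 days, microglia were taken by CD11b selection, and astrocytes were sorted from the fraction left over.

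Treatments carry the short names of the study. T is TNF, 5z is the TAK1 inhibitor 5z-7, S is a Smac mimetic, which removes inhibitor of apoptosis proteins, Z is the caspase inhibitor zVAD, and N is Nec-1s, an inhibitor of RIPK1 kinase activity. DMSO was the vehicle, which the labels of the astrocyte libraries spell differently. Microglia were given T/5z or T/S/Z, each without or with Nec-1s (named T/5z/N or T/S/Z/N), or Nec-1s alone or DMSO, and each of these 6 groups has 4 libraries. Astrocytes had no T/5z arm, and each of their 4 groups has 3 libraries. T/5z is used as a trigger of RIPK1-dependent apoptosis and T/S/Z as a trigger of necroptosis. Both stimuli contain more than TNF, and TNF alone was not among the treatments, so the part of each agent cannot be told apart.

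Immediate early genes are switched on within minutes of a signal without new protein synthesis, and most of them encode transcription factors. The EGR proteins bind GC-rich sites through zinc fingers. FOS and JUN family proteins pair through leucine zippers to form AP-1, which is fed by the MAP kinases JNK, ERK and p38, while ATF3 pairs with JUN proteins and is a stress-induced regulator of inflammatory genes in myeloid cells. Transcripts of this class are short-lived, and a single time point shows only what was present then.

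In the microglial annotation, which uses GRCm38 coordinates, Egr2 (ENSMUSG00000037868) lies at chr10:67537869-67542188, Egr3 (ENSMUSG00000033730) at chr14:70077203-70082550, Fos (ENSMUSG00000021250) at chr12:85473890-85477273, Fosb (ENSMUSG00000003545) at chr7:19302696-19310051, Fosl1 (ENSMUSG00000024912) at chr19:5447703-5455945, Jun (ENSMUSG00000052684) at chr4:95049034-95052222, Junb (ENSMUSG00000052837) at chr8:84976910-84978718, Atf3 (ENSMUSG00000026628) at chr1:191170296-191218039 and Ier2 (ENSMUSG00000053560) at chr8:84661331-84662852. Egr1 is ENSMUSG00000038418. All are protein-coding, and values count reads over all exons of a gene.

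Upstream sequences are shown for 4 members that responded differently, to set the letters of their promoters beside their responses. Of the 10 members, 6 (Egr2, Fos, Fosb, Jun, Junb and Atf3) were matched by symbol in the RefSeq table of GRCm38.p6, and the 250 bases before the start are given 5' to 3' on the strand of the gene. Capitals mark matches on either strand to a CArG box (the site of serum response factor), the core of the cAMP response element TGACG, an AP-1 site TGANTCA, an EGR site GCGNGGGCG or an NF-kB site.
Egr2, chr10:67537619-67537868, plus strand: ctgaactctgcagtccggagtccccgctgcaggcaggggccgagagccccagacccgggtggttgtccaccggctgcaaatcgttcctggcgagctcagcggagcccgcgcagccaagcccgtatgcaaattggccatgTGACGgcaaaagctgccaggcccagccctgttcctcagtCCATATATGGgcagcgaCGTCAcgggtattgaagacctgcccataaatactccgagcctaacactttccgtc
Fos, chr12:85473640-85473889, plus strand: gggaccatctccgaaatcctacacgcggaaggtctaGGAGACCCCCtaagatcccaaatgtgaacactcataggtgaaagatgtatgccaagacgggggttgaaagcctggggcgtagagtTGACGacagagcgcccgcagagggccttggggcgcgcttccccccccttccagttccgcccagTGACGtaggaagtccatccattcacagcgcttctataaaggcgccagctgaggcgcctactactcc
Junb, chr8:84978749-84978998, minus strand: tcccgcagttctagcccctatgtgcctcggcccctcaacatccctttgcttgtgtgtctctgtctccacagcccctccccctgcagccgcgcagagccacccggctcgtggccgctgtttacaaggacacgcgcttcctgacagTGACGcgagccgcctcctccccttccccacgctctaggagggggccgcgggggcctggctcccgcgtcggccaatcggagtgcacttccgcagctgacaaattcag
Atf3, chr1:191183334-191183583, minus strand: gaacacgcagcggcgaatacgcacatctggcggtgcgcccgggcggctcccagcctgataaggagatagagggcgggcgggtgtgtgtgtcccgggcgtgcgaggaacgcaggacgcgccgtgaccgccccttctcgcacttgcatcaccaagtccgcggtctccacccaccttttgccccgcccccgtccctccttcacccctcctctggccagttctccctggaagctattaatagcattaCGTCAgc
The Egr2 window held a CArG box at positions -72 to -63 and the TGACG core at -111 to -107 and, on the other strand, at -55 to -51. The Fos window held TGACG at -129 to -125 and at -66 to -62 and an NF-kB match at -214 to -205. Junb had 1 TGACG core at -106 to -102 and Atf3 had 1 on the other strand at -7 to -3. None of these matches overlapped another. In the windows not printed, Fosb had 1 TGACG core, 1 EGR site and 1 NF-kB match, and Jun had 0 matches to the motifs searched. Among the 32851 windows of the same length in the table, 1.47% held a CArG box, 17.77% the TGACG core, 6.75% an AP-1 site, 4.7% an EGR site and 3.9% an NF-kB match. The Atf3 window belongs to a start that lies 34706 bases inside the deposited gene model, which reaches to 191218039. These matches describe letters only. Sites farther upstream, or spelled otherwise than these motifs, were not searched.

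All values are log2(FPKM + 1), where FPKM is fragments per kilobase of exon scaled for library depth, and all differences are on that scale, where the fold of a weakly expressed gene comes out too small. A gene was counted as higher or lower when limma gave a fold change over 1.5 and a Benjamini-Hochberg adjusted p under 0.05 over all genes tested. Of the members, 9 were tested in microglia and 10 in astrocytes. Fosb was too low in microglia, with 2 of 24 libraries at a value of 1 or more. Egr3 entered the microglial test only through stimulated libraries, 6 in all and 4 of them T/S/Z, and Fosl1 entered through 10 libraries of which 1 was DMSO, so both had to differ somewhere. Counts of microglial members set against the share over all genes therefore leave out Egr3 and Fosl1 and run over the other 7, and in astrocytes they leave out Fosb, which entered through 3 libraries, none of them DMSO, and run over 9. Atf3 carries a mark named confounded in both annotations, and Fosl1, Jun and Junb carry it in that of the astrocytes. The mark is not defined there, and reads of an overlapping gene in their values cannot be told apart.

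The labelled cell types had their markers. All 10 microglial markers were over 1 FPKM in the microglial DMSO group and their summed level was 6024 to 7300 FPKM over the 24 libraries, although the homeostatic genes P2ry12 (4.27 FPKM in DMSO) and Tmem119 (9.04 FPKM) were low. All 9 astrocyte markers were over 1 FPKM in the astrocyte DMSO group. The summed astrocyte markers in microglia moved with the treatments, at 7.17 to 9.14 FPKM in DMSO, 12.1 to 22.2 in T/5z, 8.15 to 8.95 in T/5z/N, 13.7 to 19.9 in T/S/Z and 4.88 to 6.03 in T/S/Z/N, with 2 of 9 over 1 FPKM in DMSO and 6 of 9 in T/S/Z. The fibroblast and mural markers in microglia were at 6.73 to 8.74 FPKM in DMSO, 12.9 to 23.2 in T/5z, 7.45 to 9.50 in T/5z/N, 5.60 to 9.07 in T/S/Z and 3.11 to 5.64 in T/S/Z/N, and 4 of the 4 tested were higher after T/5z. None of the 9 astrocyte markers was at 0, and Gfap was at 2.29 FPKM in DMSO and 5.46 in T/S/Z. The summed microglial markers in the astrocyte table were 84.5 to 89.3 FPKM in DMSO, 58.9 to 61.9 in T/S/Z and 77.0 to 80.5 in T/S/Z/N. The summed fibroblast and mural markers there were 916 to 1108 FPKM in DMSO, 590 to 684 in T/S/Z and 794 to 836 in T/S/Z/N. Most of that sum was Acta2 (596, 543 and 480.0 FPKM), and 5 of the 6 markers were lower after T/S/Z (median of the list -1.88) and 5 of 6 higher when Nec-1s was added (median 1.46), Dcn for example at 155, 36.0 and 175 FPKM. Endothelial markers in astrocytes were at 17.6 to 19.5 FPKM in DMSO, 6.46 to 7.18 in T/S/Z and 12.4 to 15.1 in T/S/Z/N, and in microglia at 7.64 to 9.47 in DMSO, 5.27 to 6.18 in T/5z, 4.24 to 4.67 in T/5z/N, 3.41 to 3.97 in T/S/Z and 3.52 to 4.19 in T/S/Z/N. Oligodendrocyte lineage markers in astrocytes were at 100.2 to 117 FPKM in DMSO, 127 to 128 in Nec-1s, 60.3 to 86.9 in T/S/Z and 67.9 to 71.9 in T/S/Z/N, and in microglia at 25.6 to 37.7 over all groups. Neuron markers were at 0.357 to 1.95 FPKM in microglia and 10.0 to 15.6 in astrocytes. The part of these cells in the results below was not tested. In bulk RNA, fewer cells of a type and less RNA per cell cannot be told apart.

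In unstimulated cells no member passed the test when Nec-1s was given alone. In microglia 0 of 9 members passed the threshold, as did 0% of the 10524 genes tested, and the differences of the 9 were all below 0, between -0.14 (Fosl1) and -0.011 (Junb). At an unadjusted p under 0.05 limma gave 1 of 9 members and 892 of all genes. In astrocytes 0 of 10 passed, against 0.0144% of 13842 genes, and the differences lay between -0.037 (Atf3) and 0.27 (Egr1), with 3 of 10 members and 790 of all genes at an unadjusted p under 0.05. There Egr1 and Jun (0.22) stood higher with Nec-1s in 3 of 3 replicates, in groups that did not overlap, and Ier2 (0.26), Fosl1 (0.23) and Junb (0.20) in 3 of 3 replicates, in groups that did. With ordinary variances, those of each gene alone without moderation by limma, 0 members passed in either table.

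In microglia T/S/Z raised more of the members than T/5z did. After T/S/Z, 5 of 7 members rose (Egr1, Egr2, Jun, Junb and Atf3), against 12.2% of all genes tested. Of the 7, 1 fell (Fos), no more than the share of all genes (17.5%). After T/5z, 2 of 7 rose (Egr2 and Junb), against 11.1% of all genes tested, and 1 of 7 fell (Fos), close to the share of all genes (13.3%). Adding Nec-1s to T/S/Z lowered 5 of 7 (Egr1, Egr2, Jun, Atf3 and Ier2), against 6.72% of all genes, and raised Fos, against 5.35%. Adding Nec-1s to T/5z lowered Egr1 and Egr2, against 4.52%. Egr3 and Fosl1 are described by their values. The comparisons with a shared group use the same libraries, so their differences are not independent.

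**Figure D1:**
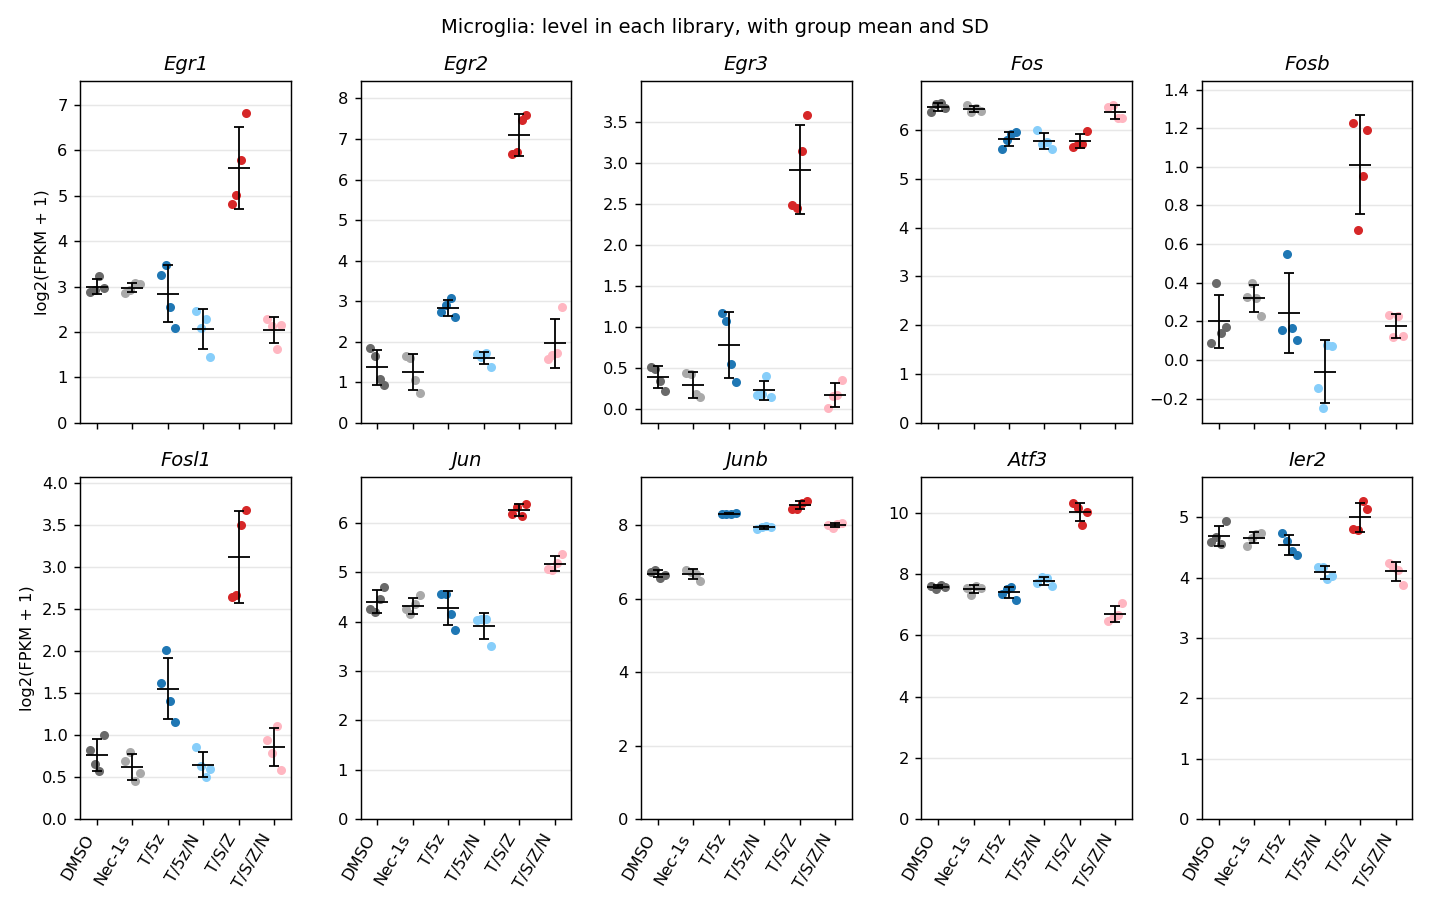
Level of each of the 10 genes in the 24 microglial libraries as log2(FPKM + 1) on the vertical axis, by treatment on the horizontal axis. Points are libraries, and the bar with its whiskers is the group mean and SD (n = 4). The 4 T/S/Z libraries lie above every other library for Egr1, Egr2, Egr3, Fosb, Fosl1, Jun, Junb and Atf3, while for Fos they lie below all DMSO libraries. Scales differ between panels.

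Egr2 showed the widest range of the members in microglia. EGR2 is a zinc finger factor of the EGR family, known for its part in myelination and in myeloid and T cells. Its DMSO libraries read 1.84, 1.64, 1.08 and 0.94, its T/5z libraries 2.74, 2.89, 3.07 and 2.61, and its T/S/Z libraries 6.63, 6.68, 7.48 and 7.60. The 3 groups did not overlap. The difference from DMSO was 1.45 (SE 0.168, limma adjusted p = 0.00028) after T/5z and 5.72 (SE 0.299, adjusted p = 2.4e-06) after T/S/Z, a 52.7-fold change of FPKM + 1. With Nec-1s the values were 1.69, 1.63, 1.71 and 1.37 in T/5z/N and 1.57, 1.68, 1.73 and 2.86 in T/S/Z/N, and replicate 4 of T/S/Z/N lay apart from the rest of its group. The effect of Nec-1s was -1.23 after T/5z (SE 0.0707, adjusted p = 7.42e-06) and -5.14 after T/S/Z (SE 0.14, adjusted p = 7.12e-07). It thereby took back 84.5% of the T/5z difference and 89.8% of the T/S/Z difference, and neither T/5z/N (0.22) nor T/S/Z/N (0.59) passed the threshold against DMSO. Without replicate 4 the T/S/Z/N difference from DMSO was 0.14.

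Egr1, the founding member of the family and a common read-out of ERK signalling, did not pass the test after T/5z but rose after T/S/Z. Its libraries read 2.88, 2.92, 3.23 and 2.97 in DMSO, 3.25, 3.47, 2.55 and 2.10 in T/5z, and 4.82, 5.02, 5.77 and 6.83 in T/S/Z. T/5z lay on both sides of DMSO, 2 replicates higher and 2 lower, and T/S/Z lay above both. The T/S/Z difference was 2.61 (SE 0.276, adjusted p = 8.9e-05). With Nec-1s, Egr1 ended below the vehicle, at 2.46, 2.08, 2.29 and 1.44 in T/5z/N and at 2.28, 2.13, 1.62 and 2.15 in T/S/Z/N. Both groups were lower than DMSO, with differences of -0.93 (SE 0.153, adjusted p = 0.00166) and -0.95 (SE 0.155, adjusted p = 0.0018), so the effect of Nec-1s after T/S/Z, -3.56 (SE 0.32, adjusted p = 8.85e-05), came to 136.5% of the rise. The calls of these groups against DMSO were lost with ordinary variances (adjusted p = 0.0792 and 0.0668) and with a pseudocount of 5 (-0.54 and -0.56, under the fold minimum). After T/5z the effect of Nec-1s was -0.77 (adjusted p = 0.0038), in groups that overlapped, and without replicate 2 it was -0.57, under the fold minimum. Its adjusted p was 0.0699 with all 6 groups in the fit and 0.101 with ordinary variances.

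Egr3, a close relative known from lymphocytes and neurons, was near the floor in unstimulated microglia. Its values were 0.50, 0.48, 0.34 and 0.21 in DMSO, 1.16, 1.07, 0.54 and 0.33 in T/5z and 2.49, 2.45, 3.14 and 3.58 in T/S/Z. The T/5z group overlapped DMSO and differed from it by 0.39. The T/S/Z group lay above every other library, 2.53 above DMSO (SE 0.226). In T/S/Z/N the values lay between 0.0052 and 0.35, and the effect of Nec-1s was -2.75 (SE 0.15), or 108.5% of the difference from DMSO. After T/5z it was -0.55. No p is given for Egr3 in microglia, given how it entered the test.

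Within the FOS family the members went different ways. Fos, the classic partner of JUN proteins in AP-1, was high in resting microglia and fell with both stimuli. Its libraries read 6.37, 6.53, 6.55 and 6.44 in DMSO, 5.61, 5.78, 5.91 and 5.95 in T/5z, and 5.66, 5.72, 5.72 and 5.98 in T/S/Z. Both stimulated groups lay below DMSO, with differences of -0.66 (SE 0.0571, adjusted p = 6.71e-05) and -0.70 (SE 0.0702, adjusted p = 6.5e-05). The Nec-1s libraries of T/5z stayed there, at 6.00, 5.71, 5.76 and 5.61, while those of T/S/Z read 6.47, 6.51, 6.24 and 6.25. The effect of Nec-1s was -0.043 (adjusted p = 0.749) after T/5z and 0.60 (SE 0.0904, adjusted p = 0.000972) after T/S/Z, where it took back 85.1% of the fall. That 0.60 is close to the fold minimum, and it was 0.53 without replicate 1, 0.53 without replicate 2, 0.53 with median centring and 0.57 with a pseudocount of 5, all under it.

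Fosl1, which encodes the FOS relative FRA-1 and is often induced later and for longer than Fos, is likewise given without a p in microglia. It read 0.82, 0.65, 0.57 and 1.00 in DMSO, 1.62, 2.01, 1.41 and 1.16 in T/5z and 2.64, 2.66, 3.50 and 3.67 in T/S/Z. The 3 groups did not overlap, and the differences from DMSO were 0.79 (SE 0.182) and 2.35 (SE 0.179). Nec-1s brought both groups to values that overlapped DMSO, 0.50 to 0.85 in T/5z/N and 0.58 to 1.11 in T/S/Z/N. Its effects were -0.90 and -2.26 (SE 0.205), or 114.7% and 96.1% of the differences. With a pseudocount of 5 in place of 1, the T/5z difference was 0.29 and the effect of Nec-1s on it -0.32.

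Fosb, whose product also pairs with JUN proteins, was described without a test. It read 0.087, 0.40, 0.14 and 0.17 in DMSO and 1.23, 0.67, 0.95 and 1.19 in T/S/Z, groups that did not overlap. The T/S/Z/N libraries read 0.23, 0.12, 0.23 and 0.13, back within the range of DMSO. T/5z lay at 0.10 to 0.55, and T/5z/N lay at -0.25 to 0.079. Values below 0, which log2(FPKM + 1) does not allow, occur in this adjusted table.

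Jun and Junb kept part of their rise after T/S/Z under Nec-1s. Jun, the main JNK target of AP-1, read 4.25, 4.20, 4.47 and 4.70 in DMSO, 4.56, 4.55, 4.15 and 3.84 in T/5z and 6.18, 6.33, 6.13 and 6.39 in T/S/Z. T/5z overlapped DMSO (-0.13, adjusted p = 0.577) and T/S/Z lay above it by 1.85 (SE 0.0829, adjusted p = 1.18e-06). T/S/Z/N read 5.07, 5.05, 5.19 and 5.38, between the 2 groups and overlapping neither. The effect of Nec-1s was -1.09 (SE 0.0588, adjusted p = 9.36e-06), or 58.6% of the rise, and 0.77 above DMSO was left (SE 0.0565, adjusted p = 3.17e-05).

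Junb, a JUN relative that is also a common NF-kB and cytokine response gene, rose to a like level with both stimuli. It read 6.72, 6.78, 6.56 and 6.63 in DMSO, 8.30, 8.30, 8.31 and 8.34 in T/5z and 8.44, 8.45, 8.61 and 8.67 in T/S/Z. The differences from DMSO were 1.64 (SE 0.0531, adjusted p = 9.47e-07) and 1.87 (SE 0.0751, adjusted p = 6.8e-07). Nec-1s lowered neither past the fold minimum. The T/5z/N libraries lay at 7.89 to 7.96 and the T/S/Z/N libraries at 7.92 to 8.07, each below the group without Nec-1s and above DMSO. The effects of Nec-1s were -0.37 (adjusted p = 0.000158) and -0.54 (adjusted p = 0.000118), 22.6% and 28.8% of the rises, and 1.27 and 1.33 above DMSO were left (adjusted p = 1.51e-06 and 6.58e-06). With each library centred on its median, the effect after T/S/Z was -0.61, past the fold minimum.

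Atf3 was the most abundant member in resting microglia per length of transcript, at 193 FPKM, and rose only with T/S/Z among the stimuli tested. Its libraries read 7.62, 7.52, 7.66 and 7.60 in DMSO, 7.36, 7.53, 7.58 and 7.17 in T/5z and 10.33, 10.17, 9.62 and 10.02 in T/S/Z. T/5z overlapped DMSO (-0.19, adjusted p = 0.0631), and T/S/Z was higher by 2.44 (SE 0.114, adjusted p = 1.42e-06). Nec-1s moved Atf3 in opposite directions after the 2 stimuli. After T/S/Z it lowered Atf3 to 6.47, 6.56, 6.67 and 7.06, all below DMSO, an effect of -3.35 (SE 0.151, adjusted p = 4.79e-06) or 137.3% of the rise, and T/S/Z/N stood -0.91 from DMSO (SE 0.096, adjusted p = 0.000198). After T/5z the values with Nec-1s were 7.70, 7.91, 7.88 and 7.62, a difference of 0.37 (adjusted p = 0.000234) in groups that did not overlap, under the fold minimum.

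Ier2, a small nuclear protein of the immediate early class, moved little with either stimulus. It read 4.59, 4.68, 4.56 and 4.94 in DMSO, 4.38 to 4.74 in T/5z and 4.82, 4.79, 5.27 and 5.13 in T/S/Z, which overlapped DMSO (0.31, adjusted p = 0.0223, under the fold minimum). With Nec-1s it fell, to 3.97 to 4.18 in T/5z/N and 3.87 to 4.25 in T/S/Z/N, all below the lowest DMSO library. The effect of Nec-1s was -0.90 after T/S/Z (SE 0.118, adjusted p = 0.000517). After T/5z it was -0.45 (adjusted p = 0.000171), under the fold minimum.

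**Figure D2:**
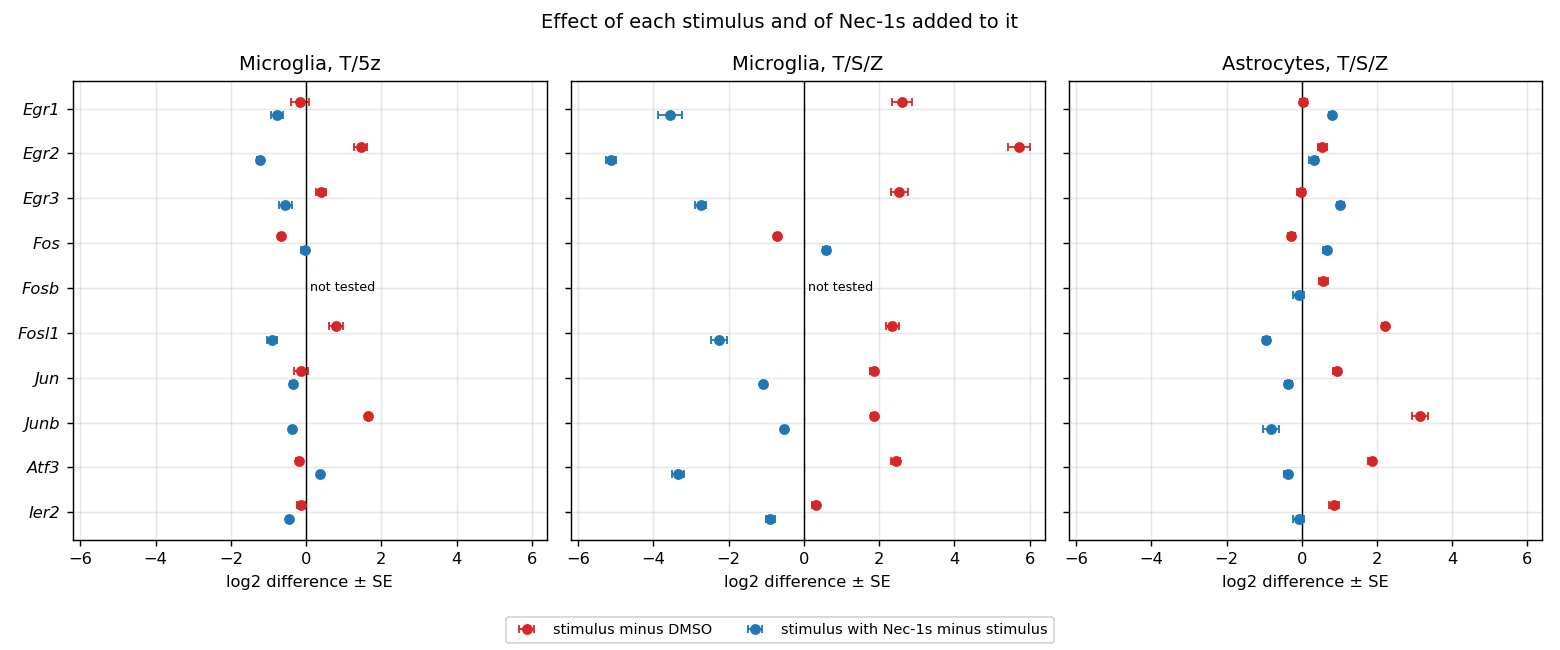
Log2 difference of stimulus minus DMSO (red) and of stimulus with Nec-1s minus stimulus (blue), as point and SE from limma, for the 10 genes on the vertical axis and T/5z in microglia, T/S/Z in microglia and T/S/Z in astrocytes as panels. In the middle panel the red points reach 5.72 (Egr2) and the blue points -5.14, while in the astrocyte panel the blue points of Egr1, Egr2, Egr3 and Fos lie right of 0. Fosb was not tested in microglia.

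The groups with Nec-1s were also compared with the vehicle in microglia. In T/5z/N, 1 of 7 members was higher (Junb), against 6.16% of all genes tested, and Egr1, Fos and Ier2 were lower, against 6.69%. Ier2 was near the fold minimum (-0.60, adjusted p = 0.000594) and was -0.50 without replicate 4, under it. In T/S/Z/N Jun and Junb were higher, against 6.2%, and Egr1 and Atf3 were lower, against 7.87%. Ier2 was at -0.58 there (adjusted p = 0.0044), and it passed the fold minimum when replicate 1, 2 or 3 was left out (-0.66, -0.61 and -0.64).

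Set directly against each other, T/S/Z exceeded T/5z for 4 of 7 members (Egr1, Egr2, Jun and Atf3), against 5.42% of all genes. With Egr3 and Fosl1 added as a description, the differences were 4.27 for Egr2 (SE 0.184, adjusted p = 1.11e-05), 2.77 for Egr1 (SE 0.493), 2.63 for Atf3 (SE 0.14), 2.14 for Egr3 (SE 0.313), 1.98 for Jun (SE 0.139) and 1.57 for Fosl1 (SE 0.291), each higher in all 4 replicates. With ordinary variances the adjusted p of Egr1 was 0.0963. Junb differed by 0.23 (SE 0.0533, adjusted p = 0.014), or by -0.0036 with quantile normalization, and Fos by -0.044 (SE 0.0556, adjusted p = 0.562). Replicates 1 and 2 of T/S/Z lay below replicates 3 and 4 for Egr1, Egr2, Egr3, Fos, Fosl1, Junb and Ier2, and above them for Atf3. In T/5z, replicates 1 and 2 lay above replicates 3 and 4 for Egr1, Egr3, Fosl1, Jun and Ier2. The values had been adjusted to equal replicate means over the treatments. A replicate high in T/S/Z must therefore read lower in other groups. How far the size of the difference varied by replicate cannot be told.

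Between the Nec-1s groups, Fos (0.60, adjusted p = 0.000148) and Jun (1.26, SE 0.128, adjusted p = 0.000212) were higher in T/S/Z/N than in T/5z/N, against 1.8% of all genes. Atf3 was lower (-1.09, SE 0.112, adjusted p = 0.000227), against 1.59%. The Fos value was 0.53 without replicate 2 and 0.58 without replicate 4, both under the fold minimum. With ordinary variances the adjusted p was 0.0662 for Jun and 0.0677 for Atf3.

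Whether Nec-1s acted differently after the 2 stimuli was tested as the interaction. The effect after T/S/Z was more negative than after T/5z for 4 of 7 members (Egr1, Egr2, Jun and Atf3), against 3.77% of all genes. The difference of the effects was -3.91 for Egr2 (SE 0.337, adjusted p = 2.63e-06), -3.71 for Atf3 (SE 0.217, adjusted p = 1.73e-07), -2.79 for Egr1 (SE 0.575, adjusted p = 0.00309), and -0.72 for Jun (SE 0.21, adjusted p = 0.0218). As a description, it was -2.19 for Egr3 (SE 0.334) and -1.36 for Fosl1 (SE 0.336). For Fos it was 0.64 (SE 0.148, adjusted p = 0.00632), against 2.7% of genes higher. The calls of the smaller ones were easily lost. Without replicate 1, 2 or 3 Jun kept its size (-0.77, -0.71 and -0.68) but missed the adjusted p threshold (adjusted p = 0.0509, 0.0757 and 0.0935). Jun also missed it with ordinary variances (0.0682) and with quantile normalization (-0.57, adjusted p = 0.0659). Fos missed it without replicate 2 (0.57, adjusted p = 0.0553). Junb (-0.17, adjusted p = 0.063) and Ier2 (-0.45, adjusted p = 0.0546) did not pass.

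In astrocytes T/S/Z raised some of the AP-1 genes and Ier2. Fos lay lower in 3 of 3 replicates (-0.28), Egr2 was 0.55 higher, under the fold minimum, and Egr1 and Egr3 stayed near the vehicle. Of 9 members 5 rose (Junb, Fosl1, Atf3, Jun and Ier2), against 6.39% of the 13842 genes tested, and 0 fell, against 8.99%. With ordinary variances 2 members passed, and Jun, Junb and Ier2 did not (adjusted p = 0.0894, 0.0864 and 0.143). The median of all genes tested was -0.11 in this comparison, so the members' values are relative to a table that moved slightly down. Nec-1s then lowered Fosl1 (against 1.59% of all genes lower) and raised Egr1, Egr3 and Fos (against 1.51% higher). The fibroblast and mural markers rose in that same comparison, and their part in these values was not tested.

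**Figure D3:**
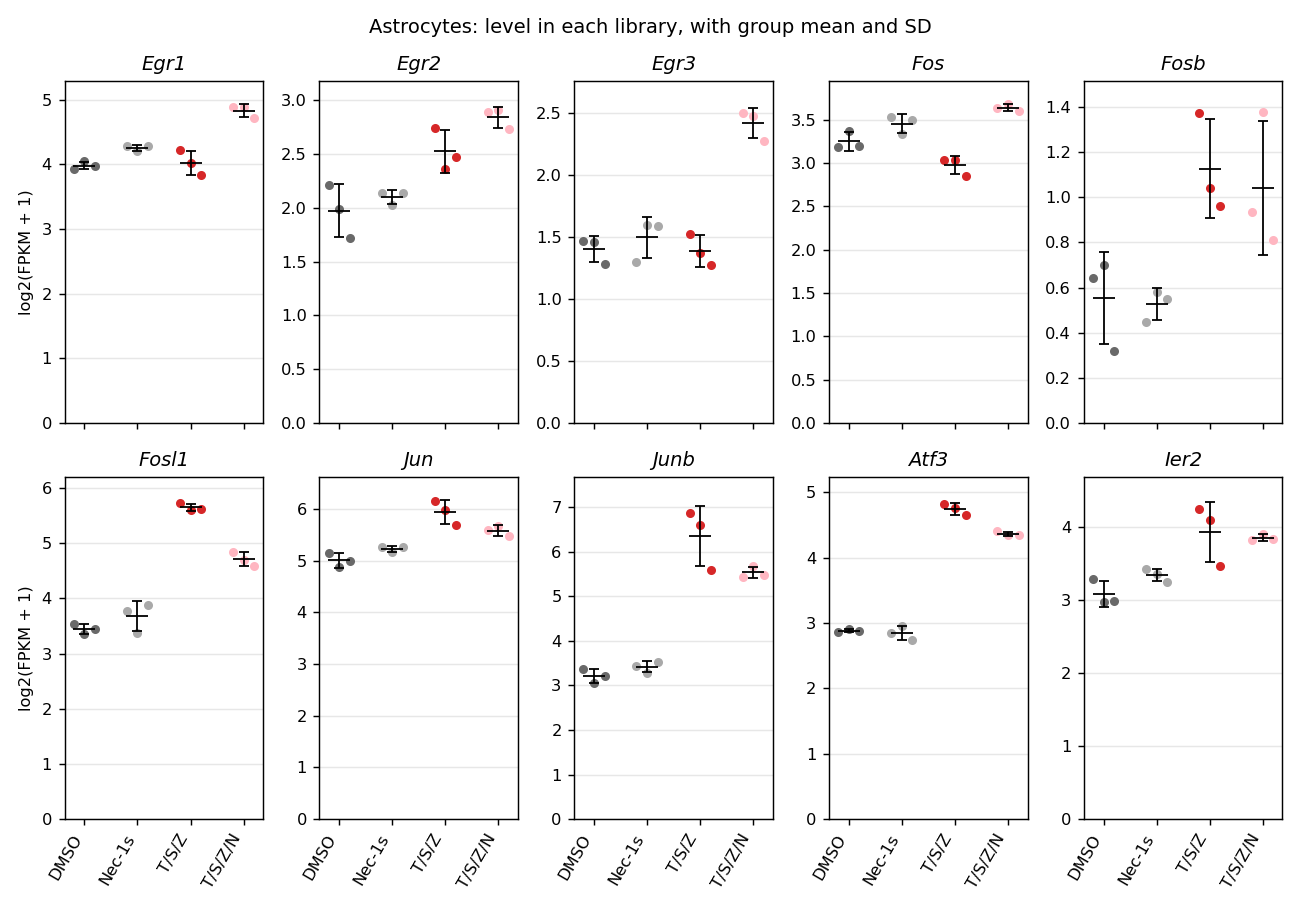
Level of each of the 10 genes in the 12 astrocyte libraries as log2(FPKM + 1) on the vertical axis, by treatment on the horizontal axis. Points are libraries, and the bar with its whiskers is the group mean and SD (n = 3). The 3 T/S/Z/N libraries lie above all other libraries for Egr1, Egr3 and Fos, and the T/S/Z libraries lie above all others for Fosl1, Jun and Atf3. Scales differ between panels.

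Junb had the largest rise of the members in astrocytes. It read 3.37, 3.06 and 3.20 in DMSO and 6.87, 6.60 and 5.59 in T/S/Z, a difference of 3.15 (SE 0.212, adjusted p = 5.19e-05). With Nec-1s it read 5.44, 5.67 and 5.48, which overlapped T/S/Z because of replicate 3. The effect of Nec-1s was -0.83 (SE 0.217, adjusted p = 0.0621), short of the threshold. It passed without replicate 3 (-1.18, adjusted p = 0.000216) and, with all libraries kept, with all groups in the fit (adjusted p = 0.0306) and with genes under a mean log2 of 3 left out (0.0289).

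Fosl1 read 3.54, 3.35 and 3.45 in DMSO, 5.73, 5.61 and 5.61 in T/S/Z and 4.85, 4.70 and 4.59 in T/S/Z/N, 3 groups that did not overlap. The rise was 2.20 (SE 0.0742, adjusted p = 2.07e-06), the effect of Nec-1s was -0.94 (SE 0.0826, adjusted p = 0.00134), or 42.6% of the rise, and 1.26 above DMSO was left. Atf3 went from 2.86, 2.91 and 2.88 to 4.82, 4.76 and 4.65, a rise of 1.86 (SE 0.0849, adjusted p = 9.41e-06). With Nec-1s it read 4.40, 4.34 and 4.34, an effect of -0.38 (adjusted p = 0.0407), under the fold minimum and 20.4% of the rise, and it stayed 1.48 above DMSO.

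Jun read 5.16, 4.88 and 4.98 in DMSO and 6.15, 5.97 and 5.69 in T/S/Z (0.93, SE 0.0923, adjusted p = 0.000339), and 5.59, 5.68 and 5.48 with Nec-1s, an effect of -0.36 (adjusted p = 0.0645). Ier2 read 3.28, 2.97 and 2.98 in DMSO and 4.24, 4.09 and 3.47 in T/S/Z (0.86, SE 0.131, adjusted p = 0.00239). The Ier2 rise did not pass without replicate 1 (0.80, adjusted p = 0.0791), and its difference with Nec-1s was -0.08 (SE 0.149, adjusted p = 0.751).

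Of the EGR genes in astrocytes, Egr1 and Egr3 were higher when Nec-1s was added to T/S/Z, and Egr2 did not pass. Egr1 read 3.93, 4.04 and 3.97 in DMSO, 4.22, 4.01 and 3.84 in T/S/Z and 4.89, 4.89 and 4.71 in T/S/Z/N. The first 2 groups overlapped (0.042, SE 0.102, adjusted p = 0.769), and Nec-1s raised Egr1 above T/S/Z by 0.81 (SE 0.0899, adjusted p = 0.00379). Egr3 read 1.47, 1.46 and 1.28, then 1.52, 1.37 and 1.27, and with Nec-1s 2.50, 2.47 and 2.27, a difference from T/S/Z of 1.03 (SE 0.0964, adjusted p = 0.00173). With a pseudocount of 5 that difference was 0.50, under the fold minimum. The T/S/Z difference of Egr3 was -0.016 and it was above 0 when the table was rescaled, at 0.14 with quantile normalization and 0.040 with median centring.

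Egr2 read 2.22, 1.99 and 1.72 in DMSO, 2.75, 2.36 and 2.47 in T/S/Z and 2.89, 2.91 and 2.73 in T/S/Z/N. Its T/S/Z difference of 0.55 (SE 0.113, adjusted p = 0.00829) was under the fold minimum, and it passed with quantile normalization (0.68) and with median centring (0.61). Nec-1s added to T/S/Z gave an Egr2 difference of 0.32 (SE 0.111, adjusted p = 0.114), in groups that overlapped. Without replicate 2 its T/S/Z difference was 0.64, past the threshold. Fosb, given as a description, read 0.64, 0.70 and 0.32 in DMSO and 1.38, 1.04 and 0.96 in T/S/Z, groups that did not overlap and differed by 0.57. With Nec-1s added it differed from T/S/Z by -0.085.

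Fos read 3.18, 3.37 and 3.20 in DMSO, 3.03, 3.03 and 2.85 in T/S/Z and 3.63, 3.68 and 3.61 in T/S/Z/N. The T/S/Z libraries lay below DMSO (difference -0.28, adjusted p = 0.0518), short of both limits, and Nec-1s raised Fos from there by 0.67 (SE 0.0917, adjusted p = 0.00894). That rise had an adjusted p of 0.0673 without replicate 2, and it was 0.47, under the fold minimum, with a pseudocount of 5. All 4 calls of Nec-1s added to T/S/Z in astrocytes rest on the moderated variance of limma. With the variance of each gene alone, 0 of 10 members and 3 of 13842 genes passed, and the adjusted p of Egr1, Egr3, Fos and Fosl1 was 0.196 to 0.206.

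Against the vehicle, 7 of 9 members were higher in astrocytes under T/S/Z/N (Junb, Atf3, Fosl1, Egr3, Egr2, Egr1 and Ier2), against 4.36% of all genes, and 0 were lower, against 4.72%. With ordinary variances 1 of these calls was left (Egr3), and the adjusted p of the other 6 was 0.0644 to 0.14. With a pseudocount of 5, 4 were left. Junb was at 2.32, Egr3 at 1.01, Egr2 at 0.87, Egr1 at 0.85 and Ier2 at 0.78. The Ier2 difference had an adjusted p of 0.0548 without replicate 2. Jun was at 0.58, under the fold minimum, and passed it without replicate 1 (0.65) and without replicate 3 (0.62). Egr1 was at 0.85 from DMSO here and at -0.95 under the same treatment in microglia, and neither call held with ordinary variances. The tables were normalized separately, and the difference between the cell types was not tested.

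Side by side, per length of transcript, the astrocyte table held more Fosl1 (9.93 against 0.71 FPKM in DMSO) and the microglial table more Atf3 (193 against 6.39), Junb (101 against 8.29) and Fos (87.9 against 8.53). The 2 tables differ in scale, with a 75th percentile of 4.11 to 4.16 in microglia and 4.73 to 4.74 in astrocytes. Exon lengths also differ, for Junb 1809 and 2301 bases. The levels and percentages here carry both differences. After T/S/Z, Egr2 was at 142 FPKM in microglia and 4.80 in astrocytes. After T/S/Z the astrocyte level was 3.37% of the microglial level for Egr2 and 2.42% for Atf3, where the 10 microglial markers were at 0.196% to 18.7%. In DMSO and T/S/Z/N the astrocyte level of Egr2 was 176% and 194% of the microglial one, above every marker (highest 43.0% and 30.1%). For Atf3 it was 3.31% and 18.9%, within the range of the markers, and the part of microglia left in the astrocyte cultures in the Atf3 values was not tested.

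Other genes of the class moved in the same comparisons. The shares of all genes tested that passed as higher and as lower, against which the counts of the 3 lists are to be read, were 12.2% and 17.5% after T/S/Z, 11.1% and 13.3% after T/5z, 5.35% and 6.72% with Nec-1s added to T/S/Z and 2.64% and 4.52% with Nec-1s added to T/5z in microglia. In astrocytes they were 6.39% and 8.99% after T/S/Z and 1.51% and 1.59% with Nec-1s added. Of 22 other immediate early genes tested in microglia, 13 rose and 3 fell after T/S/Z (median 1.43, against -0.085 over all genes tested), and 0 rose and 18 fell when Nec-1s was added (median -1.68, against 0.059). The largest were Gem, a small GTP-binding protein (4.18, SE 0.432), the kinase Plk2 (4.15, SE 0.0658) and Csrnp1 (3.75, SE 0.204), and with Nec-1s Plk2 (-3.94), the nuclear receptor Nr4a3 (-3.30) and the kinase Plk3 (-3.12). After T/5z, 7 rose and 4 fell (median 0.25, against -0.058), led by Csrnp1 (2.52), Gem (2.49) and Ier3 (1.74). With Nec-1s added to T/5z, 0 rose and 11 fell (median -0.58), led by Rhob (-1.78), Klf2 (-1.55) and Phlda1 (-1.54). In astrocytes 12 of 23 rose and 0 fell after T/S/Z (median 0.61, against -0.11), led by the stress gene Ier3 (3.10), Rhob (1.62) and Csrnp1 (1.57). With ordinary variances 2 passed after T/S/Z and 0 with Nec-1s added. By limma, 1 rose and 4 fell with Nec-1s added. Those led by size were Ier3 (-1.28), Myc (-0.82) and Rhob (-0.77), and the 1 that rose was Btg2 (0.76), named after its value was seen.

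The other AP-1 genes moved in both directions. Of 13 tested in microglia, 5 rose and 2 fell after T/S/Z and 5 rose and 4 fell after T/5z. The 2 that fell after T/S/Z are close to the share of all genes (17.5%). The small MAF gene Maff (4.38) and the JUN dimerization partner Jdp2 (4.33) were among the largest after T/S/Z. After T/5z, Jdp2 (3.30) and Maff (2.72) were among the largest. Nec-1s lowered 5 and raised 0 after T/S/Z, led by Maff (-2.81), Jdp2 (-1.48) and Mafk (-1.36), and lowered 4 and raised 1 after T/5z, led by Maff (-1.50), Jdp2 (-1.41) and Batf2 (-1.15). In astrocytes 5 of 11 rose and 0 fell after T/S/Z, led by Fosl2 (1.65), Batf3 (1.46) and Maff (1.34), and with ordinary variances 0 passed. When Nec-1s was added 0 passed the limma threshold, with 6 at an unadjusted p under 0.05 and 0 with ordinary variances.

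The last list held genes that feed or restrain the EGR and AP-1 factors. Of 24 tested in microglia, 8 rose and 2 fell after T/S/Z, led by the p38 target kinase Mapkapk2 (1.64), the ETS factor Elk3 (1.20) and the EGR corepressor Nab1 (1.14). After T/5z, 6 rose and 2 fell, led by Mapkapk2 (1.84), Srf (0.91), which encodes serum response factor, and Mkl1 (-0.82), which encodes a cofactor of it. Nec-1s lowered 3 and raised 2 after T/S/Z, led by the kinase Map3k8 (-1.73), the EGR corepressor Nab2 (-1.27) and Mapk14 (1.17), which encodes p38 alpha. After T/5z it lowered Elk3 alone (-0.64), close to the share of all genes (4.52%). In astrocytes 2 of 23 rose and 2 fell after T/S/Z, close to the 6.39% and 8.99% of all genes, led by Map3k8 (1.65), Map2k6 (-1.08) and Nab1 (0.85), and with Nec-1s Map3k8 was lower (-0.77) and Map2k6 higher (0.59).

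The members differed in how alike their patterns were over the 24 microglial libraries. Pearson's r was 0.967 between Egr2 and Egr3, 0.960 between Egr3 and Fosl1 and 0.942 between Egr1 and Egr3, against 0.287 between Egr1 and Junb and -0.763 between Fos and Junb. The genes most like each member were Ndel1 (0.988) and Tubb6 (0.987) for Egr2, Pgam1 (0.965) and Plau (0.963) for Egr1, Edn1 (0.987) and Nr4a3 (0.986) for Egr3, Phlda1 (0.980) and Ier3 (0.977) for Fosl1, Rinl (0.905) and Pgm2l1 (0.898) for Fos, Hmga1 (0.958) and Fam214b (0.954) for Jun, Pim1 (0.996) and Ptges (0.992) for Junb, Id2 (0.978) and Nat6 (0.954) for Atf3, and Nr4a1 (0.938) and Nes (0.933) for Ier2. These values describe libraries that fall into 6 treatments, share replicate numbers and were adjusted together, and they carry no test.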

How the data were processed

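RNA expression was analysed in 24 microglial and 12 astrocyte libraries. Alignment, quantification and normalization were done by the authors in OmicSoft Array Studio. The deposited values are log2(FPKM + 1), with the libraries of each cell type brought to nearly the same 75th percentile. It was 4.11 to 4.16 in microglia and 4.73 to 4.74 in astrocytes. Microglial libraries came from one provider and astrocyte libraries from another, with a strand-specific protocol, so provider and cell type cannot be told apart and no test was made across tables. The coordinates of the annotation fit the mouse build GRCm38. Averaged over the 6 treatments, every microglial gene had the same mean in all replicates, to within 8.33e-05, so the values had been adjusted by replicate. This left 187 to 1438 negative values per library in replicates 1 to 3.

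Depth was estimated from the values. The steps between low values gave an estimated depth of 17.9 to 25.1 M in replicate 4 of microglia (6 libraries) and 21.2 to 22.1 M in the 12 astrocyte libraries, with a median of 77.0% and 93.2% of low values within 0.15 of a whole number. Whole multiples of these depths fitted nearly as well, so they are lower estimates in reads or fragments, and the depth of the other microglial libraries is unknown. No count test was made.

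Genes with a log2 value of at least 1 in at least 4 microglial or 3 astrocyte libraries were tested (10524 and 13842 genes). Members under that value in most DMSO libraries were left out of counts set against all genes, a choice made after seeing the data. Groups were compared 2-sided with limma 3.58.1 in R 4.3.3 (lmFit, eBayes with trend), on the libraries of the groups compared, with replicate number as a block, since the study used a paired comparison. In astrocytes p-values measure the spread between cultures of pooled animals. In microglia the adjustment by replicate came first, so the SEs and p-values there measure only the spread that it left. The pairing could not be checked in microglia, where the adjustment removed shared deviations. In astrocytes the deviations of same-numbered libraries had a median correlation of 0.041 over 18 pairs. The procedure was tested on simulated data. The genes described, the 3 lists of 62 related genes and the 6 lists of 42 markers were chosen with earlier results of these data known. Named from the lists were the 3 largest changes past the threshold per list and comparison, except for an item that is not reported here. The most alike genes were the 2 with the highest Pearson r. Motifs were searched by letters on both strands of the 250 bases before each RefSeq start. Alternatives covered the block, pseudocount, filters, scaling, variance model, groups in the fit, fold minimum and each replicate left out.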

Additional observations from a re-analysis of the deposited data

Results flagged for a closer look

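In microglia, 60 groups of 4 libraries (10 genes in 6 treatments) were searched for a single library far from the rest by Dixon's criterion, and 5 were found, where chance alone flags about 1 in 20 groups. They were replicate 4 of T/S/Z/N for Egr2 (2.86, the highest), replicate 3 of T/5z/N for Egr3 (0.40, the highest), replicate 2 of T/5z for Fosb (0.55, the highest), replicate 4 of T/5z/N for Jun (3.51, the lowest) and replicate 1 of T/5z/N for Junb (7.89, the lowest). The groups of 3 astrocyte libraries were not searched.

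The effect of Nec-1s differed between the 2 stimuli in microglia for 5 of 7 members by the limma interaction, against 3.77% of all genes lower and 2.7% higher. The difference, T/S/Z minus T/5z, was -2.79 for Egr1, -3.91 for Egr2, 0.64 for Fos, -0.72 for Jun and -3.71 for Atf3. As a description, since they entered the test mostly through stimulated libraries, it was -2.19 for Egr3 and -1.36 for Fosl1.

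Some members moved one way in every microglial replicate and the other way in every astrocyte replicate, and the difference between the cell types was not tested. The difference with Nec-1s added to T/S/Z was -3.56 in microglia and 0.81 in astrocytes for Egr1, -2.75 and 1.03 for Egr3, and -5.14 and 0.32 for Egr2, of which 0.32 did not pass the limma threshold (adjusted p = 0.114). T/S/Z/N stood from DMSO by -0.95 in microglia and 0.85 in astrocytes for Egr1, by -0.91 and 1.48 for Atf3, and by -0.58 (under the fold minimum) and 0.78 for Ier2.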

How the results depend on the processing

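Counts of members past the threshold, over the 7 microglial and 9 astrocyte members counted in the report, were recomputed under 10 kinds of change, and 158 of 178 recomputed counts lay within 1.5 times the count reported. The 158 include the comparisons of Nec-1s alone with DMSO, where the count was 0 throughout. For T/5z/N against T/5z the count was 1 with a pseudocount of 5, with genes under a mean log2 of 3 left out, with ordinary variances, with all groups in the fit and with a fold minimum of 2, and 1 to 2 with 1 replicate left out (1 without replicate 2). With a fold minimum of 2 it was 1 for T/5z/N and 1 for T/S/Z/N against DMSO and 3 for the interaction in microglia, and in astrocytes 3 for T/S/Z against DMSO, 1 for T/S/Z/N against T/S/Z and 4 for T/S/Z/N against DMSO. With a pseudocount of 5 it was 2 for T/5z/N against DMSO in microglia, and 2 for T/S/Z/N against T/S/Z and 4 against DMSO in astrocytes. With ordinary variances it was 1 for T/S/Z/N against T/5z/N in microglia, and 2, 0 and 1 in astrocytes for T/S/Z against DMSO and for T/S/Z/N against T/S/Z and against DMSO. The interaction gave 3 to 5 with 1 replicate left out (3 without replicate 2). With no replicate block, where replicate numbers had already been removed from the microglial values, every count equalled the one reported (for example 6 for T/S/Z and 3 for T/5z against DMSO).

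Of single members, all tested ones included, 78 recomputed values lost the call, 23 gained it, 1476 kept direction and side of the threshold, and 31 changed sign, none of them from a called value. With quantile normalization the sign changed for Fos in T/5z/N against T/5z (0.0033), Junb in T/S/Z against T/5z (-0.0036) and in the interaction (0.019), Egr1 in T/S/Z/N against T/5z/N (0.0011) and Egr3 in astrocytes after T/S/Z (0.14, and 0.040 with median centring). With 1 replicate left out, differences near 0 changed sign. In microglia they ranged from -0.051 to 0.040 for Junb, -0.057 to 0.021 for Egr1 and -0.093 to 0.028 for Ier2 with Nec-1s alone, from -0.39 to 0.083 for Egr1 and -0.29 to 0.11 for Jun after T/5z, from -0.19 to 0.057 for Fos in T/5z/N against T/5z, from -0.057 to 0.26 for Fosl1 in T/S/Z/N against DMSO, from -0.073 to 0.0042 for Fos in T/S/Z against T/5z, and in T/S/Z/N against T/5z/N from -0.27 to 0.19 for Egr1, -0.016 to 0.52 for Egr2, -0.14 to 0.0062 for Egr3 and -0.032 to 0.073 for Ier2. In astrocytes they ranged from -0.16 to 0.056 for Fosb, -0.020 to 0.23 for Egr2, -0.013 to 0.22 for Egr3 and -0.076 to 0.017 for Atf3 with Nec-1s alone, from -0.081 to 0.13 for Egr1 and -0.052 to 0.021 for Egr3 after T/S/Z, and from -0.296 to 0.093 for Fosb and -0.30 to 0.092 for Ier2 in T/S/Z/N against T/S/Z. The cause was not tested.

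Centring on the median moved the share of higher calls among all genes from 41.1% to 52.7% for T/S/Z and from 44.3% to 28.9% for T/S/Z/N against T/S/Z in microglia, and in astrocytes quantile normalization moved it from 41.5% to 52.1% for T/S/Z and from 48.1% to 59.1% for T/S/Z/N against DMSO. Depth is known only as an estimate, and values under about 1 on the log2 scale are imprecise.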
